A study of Mus musculus with 3 samples.

Results

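The regions described here are the strongest stretches of open chromatin that were found in each of 3 mouse mesenchymal stem cell libraries. The assay was ATAC-seq: a transposase cuts and tags DNA that is not covered by nucleosomes, so that open promoters and enhancers give peaks of reads. The study concerns heterotopic ossification, in which bone forms in soft tissue, here after an injury. The 3 groups were mesenchymal stem cells taken before injury (day 0) and, on day 7 after it, under the labels immobilized and non-immobilized; strain, age, sex, sorting, pooling of animals and the way of immobilizing were not given in the sources used here. Each group was 1 library, so differences between groups have no replicate check and carry no p-value. Where 3 values are given for a gene or region, their order is the day 0, the immobilized and the non-immobilized library. In each library the 23956 peak summits with the highest score on chromosomes 1 to 19 were kept, each was widened by 250 bp to both sides, and windows that overlapped were merged across libraries. The members are the merged regions that hold a kept summit of all 3 libraries: 17112 of 32157 regions, or 53.2%. Of the other regions, 5104 were strong in 2 libraries and 9941 in 1 library only (4012 of them in the day 0, 2951 in the immobilized and 2978 in the non-immobilized library). The members were thus chosen by the peak scores of these libraries, so ranks and scores are given below as a description, and the results concern what the rule did not use: where members lie, which genes they mark and what sequence they hold.

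A promoter that is open in most cells is usually free of nucleosomes just before the start of transcription. Promoters of housekeeping genes, which every cell needs, are mostly rich in CpG and carry short sites for general activators: the GC box bound by SP and KLF factors, the CCAAT box bound by the trimer NF-Y, and sites for ETS factors. Enhancers, which lie away from gene starts, tend to differ more between cell types and states. Mesenchymal stem cells can give rise to bone, cartilage, fat and tendon cells, and master regulators such as Runx2 for bone and Sox9 for cartilage mark the early choice.

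Promoter sequences of members are shown first, since the letters in them return in the results. They are RefSeq sequences of build GRCm38.p6 (mm10), from 250 bases before the start of transcription to 50 bases from it, 5′ to 3′ on the strand of the gene. Capitals mark a CCAAT box (CCAAT, or ATTGG where it reads on the other strand) or a TATA box (TATAAA), and positions count from the start of transcription as 0. The leading 5 are from the best-ranked members with a listed promoter that holds the summit: Fkbp15 at chr4:62360547-62360846 on the minus strand, Inpp5f at chr7:128611115-128611414 on the plus strand, Gcsh at chr8:116993449-116993748 on the minus strand, Rcl1 at chr19:29101125-29101424 on the plus strand and Sel1l at chr12:91849108-91849407 on the minus strand.
Fkbp15: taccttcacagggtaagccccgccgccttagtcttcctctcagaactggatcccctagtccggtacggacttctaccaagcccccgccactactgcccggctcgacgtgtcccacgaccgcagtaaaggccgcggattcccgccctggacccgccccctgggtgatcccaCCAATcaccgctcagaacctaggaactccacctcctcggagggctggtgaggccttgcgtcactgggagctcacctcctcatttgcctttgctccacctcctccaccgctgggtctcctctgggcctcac
Inpp5f: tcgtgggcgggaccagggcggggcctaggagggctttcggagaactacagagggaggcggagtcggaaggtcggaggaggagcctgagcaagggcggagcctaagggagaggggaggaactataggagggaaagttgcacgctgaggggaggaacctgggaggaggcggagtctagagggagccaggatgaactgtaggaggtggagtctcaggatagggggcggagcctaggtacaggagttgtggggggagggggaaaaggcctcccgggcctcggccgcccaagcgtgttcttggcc
Gcsh: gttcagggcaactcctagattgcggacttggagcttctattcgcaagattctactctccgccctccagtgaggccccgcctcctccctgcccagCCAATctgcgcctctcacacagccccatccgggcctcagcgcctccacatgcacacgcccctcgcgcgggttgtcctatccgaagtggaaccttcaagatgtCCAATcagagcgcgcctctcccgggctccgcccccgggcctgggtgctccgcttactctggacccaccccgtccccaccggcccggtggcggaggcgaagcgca
Rcl1: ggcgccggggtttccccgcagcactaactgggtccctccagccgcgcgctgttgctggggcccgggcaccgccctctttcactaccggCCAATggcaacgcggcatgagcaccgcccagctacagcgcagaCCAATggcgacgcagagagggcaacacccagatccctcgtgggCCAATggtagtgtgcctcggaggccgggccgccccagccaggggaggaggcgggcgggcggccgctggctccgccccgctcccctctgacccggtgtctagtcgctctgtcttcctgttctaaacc
Sel1l: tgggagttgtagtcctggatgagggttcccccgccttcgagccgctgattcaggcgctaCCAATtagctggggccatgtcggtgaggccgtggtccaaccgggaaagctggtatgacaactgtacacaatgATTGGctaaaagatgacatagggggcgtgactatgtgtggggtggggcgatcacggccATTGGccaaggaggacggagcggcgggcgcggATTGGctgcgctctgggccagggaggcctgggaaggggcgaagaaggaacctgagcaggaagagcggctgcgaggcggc
Rcl1, a ribosomal RNA processing factor, had 3 CCAAT boxes, at −162, −119 and −76, and its summit lay at −77. Sel1l, part of the machinery that disposes of misfolded proteins of the endoplasmic reticulum, had 4, at −191, −119, −61 and −29, with the summit at −86. Gcsh, the H protein of the glycine cleavage system, had 2, at −156 and −54, with the summit at −80. Fkbp15, an FK506-binding protein family member, had 1 at −80, with the summit at −49. Inpp5f, an inositol phosphatase, had none, but its window held 5 GC boxes (GGGCGG on either strand), and its summit lay at −83.

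The other 4 promoters belong to members at genes of the mesenchymal lineage or of the response to stretch and injury: Twist2 at chr1:91801211-91801510, Col1a2 at chr6:4505368-4505667 and Fos at chr12:85473640-85473939, all on the plus strand, and Ccn1 at chr3:145649936-145650235 on the minus strand.
Twist2: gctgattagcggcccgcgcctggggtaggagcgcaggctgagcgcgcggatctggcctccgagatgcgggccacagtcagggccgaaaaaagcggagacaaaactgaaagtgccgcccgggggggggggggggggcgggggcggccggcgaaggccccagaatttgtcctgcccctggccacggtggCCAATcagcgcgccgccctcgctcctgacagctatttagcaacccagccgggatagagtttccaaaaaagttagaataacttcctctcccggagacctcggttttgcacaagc
Col1a2: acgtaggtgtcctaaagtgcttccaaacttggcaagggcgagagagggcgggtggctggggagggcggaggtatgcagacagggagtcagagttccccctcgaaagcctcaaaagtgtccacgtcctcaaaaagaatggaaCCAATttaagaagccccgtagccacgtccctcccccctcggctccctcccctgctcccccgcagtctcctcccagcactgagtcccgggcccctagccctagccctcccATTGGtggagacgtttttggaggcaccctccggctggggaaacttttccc
Ccn1: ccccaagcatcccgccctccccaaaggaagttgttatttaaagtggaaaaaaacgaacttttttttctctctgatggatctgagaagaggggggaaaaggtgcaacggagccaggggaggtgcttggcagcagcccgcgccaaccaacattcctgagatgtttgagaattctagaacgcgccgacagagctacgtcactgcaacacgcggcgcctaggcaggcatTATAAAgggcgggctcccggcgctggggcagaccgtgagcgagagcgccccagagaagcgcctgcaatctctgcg
Fos: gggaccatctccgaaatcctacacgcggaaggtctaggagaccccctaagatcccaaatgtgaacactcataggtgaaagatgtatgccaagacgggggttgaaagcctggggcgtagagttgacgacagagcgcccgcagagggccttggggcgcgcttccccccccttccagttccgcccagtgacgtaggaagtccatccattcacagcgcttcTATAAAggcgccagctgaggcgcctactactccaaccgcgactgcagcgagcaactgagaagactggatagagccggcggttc
Twist2, a transcription factor of mesenchymal cells, had 1 CCAAT box at −63, and Col1a2, a chain of type I collagen, had 2, at −109 and at 0. Ccn1, a matrix protein induced through YAP and TAZ, had a TATA box at −25, and Fos, a subunit of AP-1, had one at −33. No CCAAT box was in these windows of Ccn1 and Fos.

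The best-ranked member of all was the same in every library. The region chr17:39846582-39847605 had rank 1 of 23956 (the highest score) in each, with scores of 196, 208 and 180. The score is the authors' own value for a peak, taken to be −log10 of a p or q value, and it was used only to rank peaks within a library. This region overlaps Rn18s-rs5, annotated as an 18S ribosomal RNA pseudogene, and its nearest coding gene start, that of Esp38, is 103688 bp away. Ribosomal RNA is encoded by many near-identical copies, so reads at this region cannot be assigned to 1 copy with certainty.

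The next best members lay at gene starts. Garem1, an adaptor of growth factor signalling, ranked 8, 17 and 7. Fkbp15 ranked 16, 18 and 17, Inpp5f 14, 20 and 9, and Gcsh 21, 24 and 10. Each of these ranks was within the best 24 of its library, and for these 4 genes the immobilized library had the last rank of the 3. Rcl1 ranked 35, 23 and 4, and Sel1l ranked 11, 16 and 39, so that the order of the libraries differed between these genes. Among the 15 members with the best worst rank (the highest of a member's 3 ranks), 14 lay within 1 kb of a coding gene start, which also named Ccnyl1, Rnf34, Cyth2, Kifc1, Mmd, Edem3, Chchd7 and Grhl1. Edem3 acts on misfolded glycoproteins and Rnf34 is a ubiquitin ligase, while Grhl1, a Grainyhead factor better known from epithelia, ranked 3, 46 and 3.

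**Figure D1:**
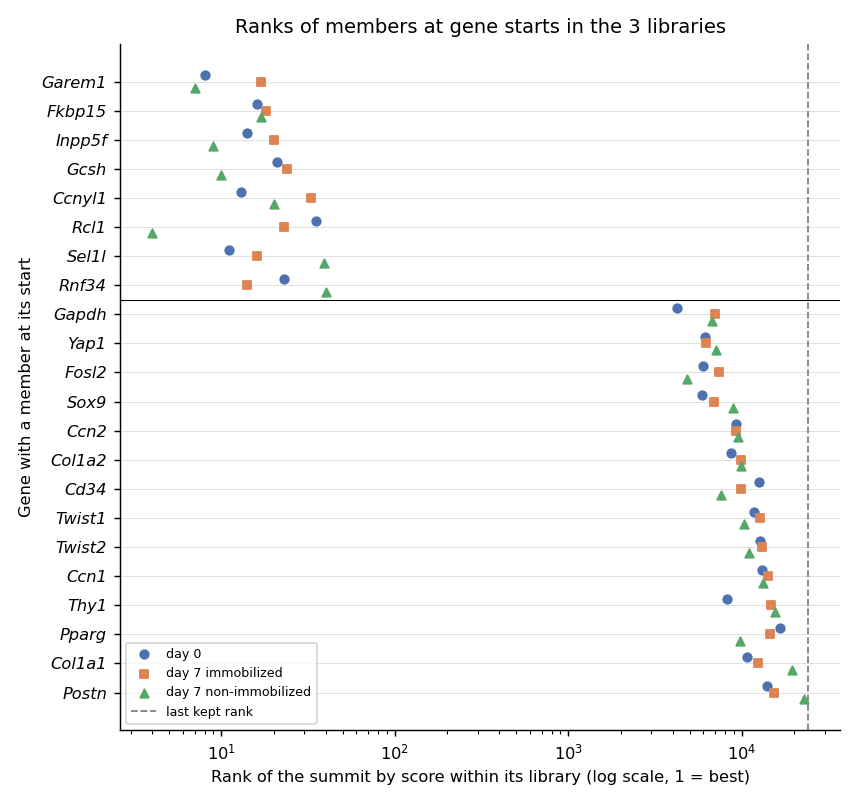
Rank of the summit at the gene start in each library (x axis, log scale, 1 is the highest score) for 8 leading genes (above the line) and for the genes of a fixed set that had a member at the start (below it). Circles are day 0, squares day 7 immobilized and triangles day 7 non-immobilized, 1 library each. The leading genes stayed within the best 40 in all 3 libraries, while Postn reached rank 22785 in the non-immobilized library.

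Few leading members lay away from coding gene starts. Of the 10 best-ranked ones over 10 kb from any start, 1 overlaps the ribosomal RNA pseudogene and 3 overlap long non-coding RNA genes: 1700012D14Rik (ranks 116, 151 and 74), D130051D11Rik (78, 70 and 250) and Dancr (446, 378 and 384), the last known as an RNA that opposes differentiation. Another 3 lie inside coding genes, namely Arhgap26 (ranks 60, 104 and 53), Lars2 (235, 98 and 152) and Asah1 (166, 297 and 63). The member near Tead4, a TEAD factor that works with YAP and TAZ, lies 26414 bp from the gene's nearer end and ranked 56 before injury and 406 and 193 after it. The member nearest to Pex2 ranked 6, 4 and 48, but lies 281842 bp from that gene.

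Members lay at coding gene starts far more often than the other strong regions. A region counts as at a start when its summit (for a member, the middle of its 3 best summits) lies within 1 kb of a RefSeq start of transcription, or of either gene end for 4208 of 20665 coding genes with no start listed. By this measure 9745 members (56.9%, exact 95% interval 56.2% to 57.7%) were at a start, against 16.5% (15.5% to 17.6%) of the regions strong in 2 libraries and 11.3% (10.7% to 11.99%) of those strong in 1. All intervals here are exact binomial (Clopper-Pearson) intervals and cover counting error only, and neighbouring regions are not independent. The share was 7.80% where that library was day 0, 11.5% where it was the immobilized and 16.0% where it was the non-immobilized one, all below the members. The median distance to a start was 274 bp for members, 19613 bp for regions strong in 2 libraries and 23871 bp for those strong in 1. Over 50 kb from any start lay 11.8%, 26.8% and 31.2%. Once starts were set aside, the classes lay closer together: 48.9% of the remaining members (47.7% to 50.04%) lay inside a coding gene, against 50.9% (49.4% to 52.4%) and 51.9% (50.9% to 53.0%).

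Position followed rank among the members. When they were divided into 10 equal groups by worst rank, 93.2% of the best group (91.9% to 94.3%) lay at a start, 65.9% of group 5 (63.6% to 68.1%) and 18.2% of the last (16.4% to 20.1%). The share over 50 kb from any start went the other way, from 1.23% to 24.7%. The last group of members was therefore close to the regions strong in 2 libraries in where it lay.

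**Figure D2:**
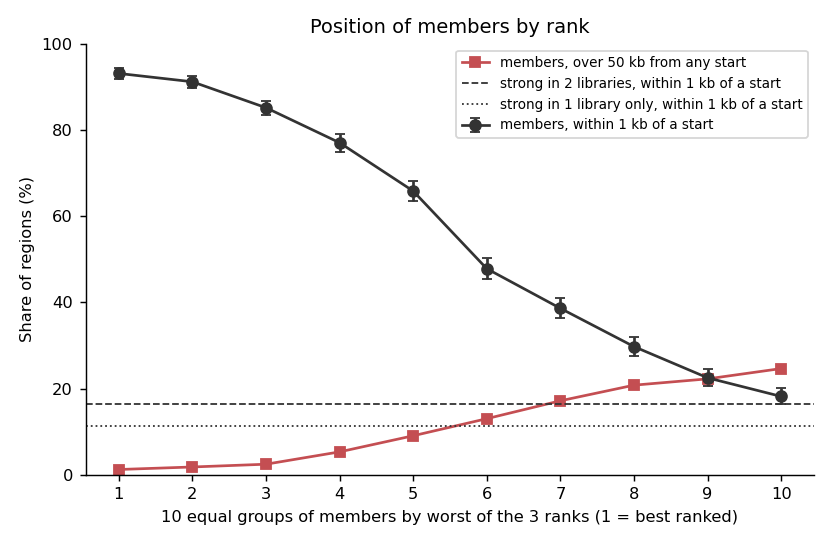
Share of members within 1 kb of a coding gene start (circles, with exact 95% intervals) and over 50 kb from any start (squares) in 10 equal groups of members by worst rank. The circles fall from 93.2% to 18.2%, and the dashed and dotted lines give the share at a start for regions strong in 2 libraries (16.5%) and in 1 library (11.3%).

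Since members rank better than other regions, the share at a start was also compared within 10 equal groups of a library's own kept summits. This matches the rank in that library only. By the rule, members are also strong in the remaining libraries, while the other regions are not strong in all of them. The groups thus still differ in the scores that defined the members, so the comparison cannot separate membership from rank. In group 6 at day 0, 34.8% of members and 10.2% of other regions were at a start. In the immobilized library these shares were 33.1% and 16.0%, and in the non-immobilized one 31.4% and 18.04%. Members had the higher share in 8 of the 9 groups with at least 20 other regions in each library, and the intervals did not overlap in 7, 7 and 4 of them. The exceptions were group 2 at day 0 (86.5% of members against 92.6% of 27 other regions) and in the immobilized library (87.7% against 19 of 20), and group 3 in the non-immobilized library (76.2% against 77.8% of 45). In the last group of the non-immobilized library the shares were 13.3% (10.7% to 16.2%) and 12.3% (10.8% to 13.98%), within each other's intervals, while at day 0 they were 22.5% and 8.61%.

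Many regions that are not members had a weaker peak where they lacked a strong one. Of the regions strong in 2 libraries, 78.6% (77.4% to 79.7%) held a summit of the remaining library that was below its 23956 best. For regions not strong in a library that were strong in 1 other, a weaker summit was found in 46.8% of cases in the day 0 list, 81.2% in the immobilized and 62.4% in the non-immobilized one. For regions strong in both other libraries these shares were 69.8%, 85.9% and 86.3%. The immobilized list was the longest, with 67404 summits on these chromosomes, against 51722 at day 0, and the non-immobilized list was the shortest. The libraries held 176119937, 143818952 and 173029378 read pairs, of which 60.2%, 43.4% and 42.0% were duplicates. Each list was searched for a different set of regions, and the part of list length, depth and duplication in these shares was not tested. The line between a member and a near miss was thin. The region near Mrpl33 ranked 9698 and 9615 at day 7 but 23957 at day 0, 1 place below the last kept, while the last member inside, near Dmrt3, ranked 23955, 18397 and 22000.

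The 3 summits of a member lay close together, which the merging of overlapping windows in part requires, so the distances are a description. The lowest and highest of a member's 3 best summits lay a median of 34 bp apart (33 to 35), and 62.9% of members had all 3 within 50 bp. In 114 members the 3 summits fell on the same base. Between pairs of libraries the median distance was 17 bp for day 0 and immobilized, 17 bp for day 0 and non-immobilized and 16 bp for the day 7 libraries, so no pair stood apart. The median was 32 bp (31 to 33) for members at a start, 34 bp (32 to 35) for members 1 to 50 kb away and 47 bp (43 to 49) for members over 50 kb away. At matched rank, members at a start were compared only with all other members, so those over 50 kb away were not compared alone. In the best-ranked group of 10 the median was 24 bp (22 to 26) at a start and 26 bp (17 to 34) elsewhere, and in the last group 57 bp (48 to 68) and 45 bp (41 to 49), intervals that overlap. In 219 members a library had more than 1 kept summit, and the median there was 60 bp (38 to 84).

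Around starts of known strand, members were placed just upstream. Of the 8039 members nearest to a listed start within 1 kb, 69.1% (68.0% to 70.1%) had the summit upstream, and the median position was −31 bp. Taken alone, the summit of each library gave medians of −34, −30 and −32 bp. Regions at starts that were strong in 2 libraries were upstream in 54.5% (50.6% to 58.4%), and those strong in 1 library in 50.2% (46.8% to 53.6%). The window from 250 bp before to 50 bp after the start held 78.6% of the members, 52.8% of the regions strong in 2 libraries and 41.9% of those strong in 1. Promoters that share a stretch of DNA and point away from each other almost always had a member. Of 1443 genes in such divergent pairs, 1356 (94.0%, 92.6% to 95.1%) had a member at the start, against 47.8% (47.0% to 48.6%) of 15014 other genes with a listed start, and 679 of 727 pairs had one at both starts. A single region can serve both starts of a pair, so these genes share members.

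**Figure D3:**
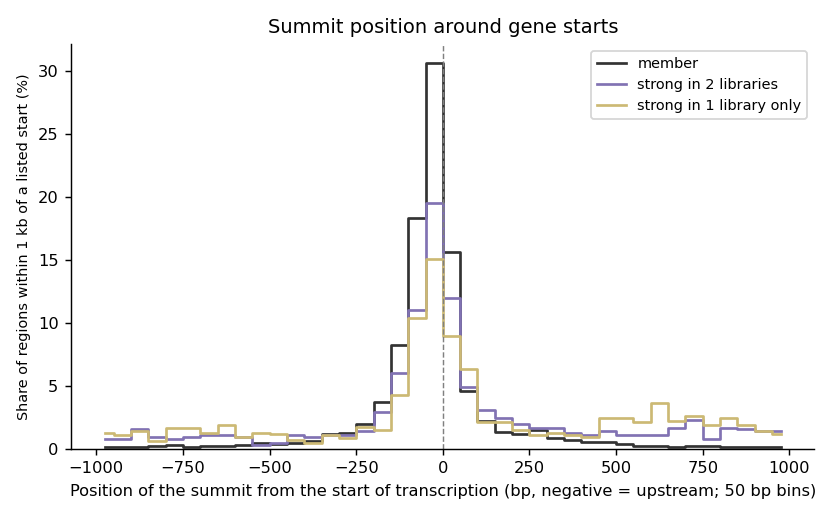
Position of summits around listed gene starts in bins of 50 bp (x axis, negative is upstream), as a share of the regions of each class within 1 kb of a listed start. Members peak just upstream of the start, with 69.1% of them upstream, and regions strong in 1 library spread more evenly.

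Members marked 10472 of 20665 autosomal coding genes at the start, or 50.7%, and 11036 genes (53.4%) were the nearest gene within 50 kb of at least 1 member. Of the latter, 8294 had 1 member and 1894 had 2. The genes were read in 27 lists that cover cell functions, signalling and cell types, and in each the share of genes with a member at the start is set beside the 50.7% of all coding genes. Genes with no listed start include Thy1, Pdgfrb, Col1a1, Sox9, Cebpd, Bmp2, Ccn2 and Fosl1. Their members at a start were placed by a gene end and may not lie at the promoter. Bulk data cannot tell apart a region that is open in more of the cells and one that is more open in each cell.

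Nearly all genes of basic machinery had a member. The proteasome, which degrades tagged proteins, had one at 31 of 31 genes, the cytosolic ribosome at 51 of 52, the mitochondrial ribosome at 37 of 40 and the spliceosome at 33 of 35. The exception in the cytosolic ribosome was Rpl38, and those in the spliceosome were Srsf2 and Hnrnpu. Psma5, an alpha subunit of the proteasome core, ranked 701, 105 and 750, and Rps19, a protein of the small ribosomal subunit, ranked 331, 496 and 980. General transcription and chromatin genes had a member at 39 of 44 starts and cell cycle genes at 25 of 28. Mcm4, a subunit of the replicative helicase, ranked 276, 396 and 655, Ccna2, cyclin A2, ranked 403, 137 and 936, and Pcna, the sliding clamp, ranked 1208, 368 and 619. These genes were picked for their ranks; others of the same lists, such as Cdk6, Mrpl3 and Rpl4, lay much closer to the last kept summit. The median worst rank of the members at these starts, as a percent of the 23956 kept, was 20.8% for the proteasome, 26.1% for the cytosolic ribosome, 31.4% for the mitochondrial ribosome, 19.7% for the spliceosome, 18.3% for the cell cycle and 17.1% for general transcription and chromatin, beside 27.6% for the members at all coding genes.

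**Figure D4:**
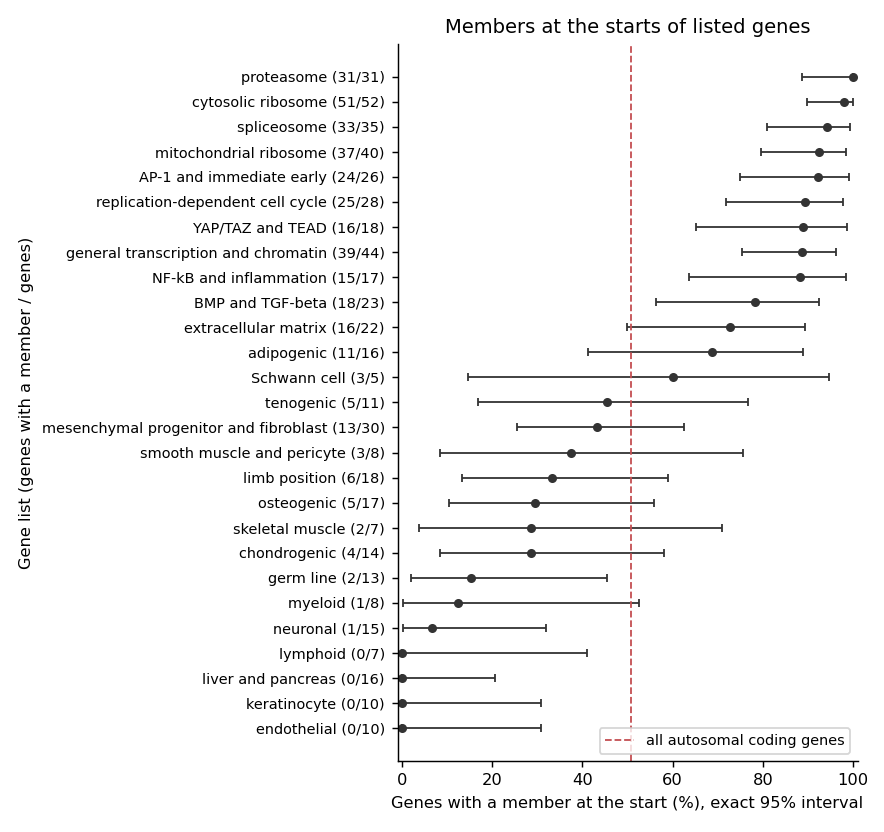
Share of genes with a member within 1 kb of the start in each of 27 gene lists (points, with exact 95% intervals), with the counts beside the names. The dashed line is the 50.7% of all autosomal coding genes, and the lists run from 31 of 31 proteasome genes to 0 of 10 endothelial genes.

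Genes of stress and injury signalling were also mostly marked in all 3 libraries. With 0.5 times as many summits kept, the share was 50% (29.9% to 70.1%) for the AP-1, 64.7% (38.3% to 85.8%) for the NF-kB and 66.7% (40.99% to 86.7%) for the YAP/TAZ list, intervals that include the 41.0% of all coding genes at that setting. The AP-1 and immediate early genes, which respond to stimuli within minutes, had a member at 24 of 26 starts, with Jund and Batf as the exceptions. Fos itself ranked 14135, 10866 and 12154, and had 6 members among the 10 merged regions nearest to it. That is close to the 58.8% of merged regions assigned to all coding genes that were members. Fosl2, another AP-1 subunit, ranked 5996, 7352 and 4833. Its relative Fosl1 was a member only just, with rank 23791 at day 0 against 12218 and 11097 at day 7. In the NF-kB and inflammation list 15 of 17 genes had a member, and the 2 without one were the cytokine genes Il1b and Tnf. Socs3, a feedback inhibitor of cytokine signalling, had 9 members and Nfkbia, the inhibitor of NF-kB, had 8. Of 23 BMP and TGF-beta genes, 18 had a member at the start. Tgfbr1, the type I TGF-beta receptor, ranked 710, 357 and 546, and Ski, a repressor of SMAD signalling, ranked 1310, 1266 and 1057, while Grem1 and Nog, which encode BMP antagonists, had none. The YAP/TAZ and TEAD list had 16 of 18. Nf2, an upstream regulator of the Hippo pathway, ranked 734, 328 and 177, Yap1 ranked 6136, 6227 and 7122, and its targets Ccn1 (13039, 14073 and 13174) and Ccn2 (9207, 9227 and 9521) were close between libraries. Tead2 and Ankrd1 had no member.

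Matrix genes had a member at 16 of 22 starts (72.7%, 49.8% to 89.3%), an interval that includes the 50.7% of all genes. With 0.5 times as many summits kept the share was 22.7% (7.82% to 45.4%), lower than the 41.0% of all genes but with an interval that includes it. Col1a2 ranked 8697, 9935 and 9943. Col1a1, the other chain of type I collagen, ranked 10720, 12361 and 19341 at its start, yet had 6 members nearest to it, of which the best, 7310 bp from the start or gene end used, ranked 4994, 5987 and 5651. Postn, periostin of injured and mechanically loaded matrix, ranked 13968, 15393 and 22785. Col3a1 and Mmp14 had no member although 4 and 5 merged regions were nearest to them.

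Genes that define lineages had members in smaller shares than those of basic machinery. Mesenchymal progenitor and fibroblast genes had a member at 13 of 30 starts (43.3%, 25.5% to 62.6%), an interval that includes the 50.7% of all genes. Twist1 ranked 11789, 12778 and 10310, Twist2 12707, 13119 and 11024, and Cd34, a surface marker of progenitors, 12589, 9939 and 7596. Thy1 ranked 8233 at day 0 and 14663 and 15478 at day 7. Pdgfra, the receptor used to mark these cells, and Prrx1, a limb mesenchyme factor, had no member at the start but 1 each at 4103 bp and 1568 bp. Ddr2, a collagen receptor, had 3, the best of them 30728 bp away. No member was assigned to Pi16 and Dpp4, markers of resting progenitors, or to Ly6a, which encodes SCA-1. Of the osteogenic genes 5 of 17 had a member at the start (29.4%, 10.3% to 56.0%): Bmp2, Runx1, Cbfb, Atf4 and Alpl. Runx2 had no merged region of any class assigned to it, and the closest member lay 37522 bp from its listed start. Only 1 start stood for this gene, so a region elsewhere in it could be assigned to another gene or to none. Of the chondrogenic genes 4 of 14 had one (28.6%, 8.39% to 58.1%). Sox9 ranked 5910, 6911 and 8893, while Acan, Sox5 and Col10a1 had none. The adipogenic list had 11 of 16 (68.75%, 41.3% to 89.0%), where Cebpd ranked 3745, 2500 and 3831 and Pparg 16558, 14530 and 9745. The tenogenic list had 5 of 11 (45.5%, 16.7% to 76.6%), and Scx, the tendon factor, had its member 2011 bp from the nearer gene end. The osteogenic, chondrogenic, adipogenic and tenogenic intervals also include the 50.7% of all genes, and the adipogenic share was above it.

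Markers of endothelial, keratinocyte, lymphoid, liver and pancreas, myeloid and neuronal cells were mostly absent from gene-start members. There was none at the starts of 10 endothelial, 10 keratinocyte, 7 lymphoid and 16 liver and pancreas genes, although 5 of the endothelial and 3 of the keratinocyte genes had a region strong in 1 or 2 libraries there. The neuronal list had 1 of 15, Tubb3. The myeloid list had 1 of 8 (12.5%, 0.316% to 52.7%), Spi1, which encodes PU.1 (ranks 8999, 10962 and 11019). This myeloid interval includes the 50.7% of all coding genes and the 43.3% of the mesenchymal progenitor list. Spi1 has no listed start, so its member was placed by a gene end and may not lie at the promoter. With listed starts only, 0 of 5 myeloid genes had a member, with an upper bound of 52.2% beside the 51.9% of all coding genes. Among 7 skeletal muscle genes (28.6%, 3.67% to 71.0%), Myod1 (9075, 14063 and 10648, also placed by a gene end) and Pax7 (8477, 15198 and 21844) had a member. So did 3 of 8 smooth muscle and pericyte genes (37.5%, 8.52% to 75.5%) and 3 of 5 Schwann cell genes (60%, 14.7% to 94.7%). The intervals of these 3 lists include both the 50.7% of all coding genes and the 43.3% of the mesenchymal progenitor list. Away from starts, members were assigned to some blood cell genes: Adgre1, Fcgr3 and Cd2 had 2 each and Lck 1. With regions at starts included, 6 of 7 merged regions of the myeloid list (42.1% to 99.6%) were members. In the lymphoid list 3 of 5 were (14.7% to 94.7%). Both intervals include the 58.8% of merged regions assigned to all coding genes that were members. Ptprc, Itgam and Cd3e had no strong region of any class assigned. Of the mesenchymal markers chosen for the labelled cell type, Pdgfrb, Prrx2, Twist1, Twist2, Thy1, Cd34, Col1a1 and Col1a2 had a member at the start. Pdgfra, Prrx1, Dpt and Ddr2 had members only away from it. Lum, Dcn, Pi16, Dpp4 and Ly6a had no member assigned.

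Some genes collected many members. Galnt2, an enzyme of protein glycosylation, had 9 of the 10 merged regions nearest to it as members, spread over 138 kb. Socs3 had 9 of 13, Ece1 9 of 14 and Nfkbia 8 of 10. Sparc, a matrix glycoprotein of bone, had 7 of 8 and Bcl3, a partner of NF-kB, 7 of 7 within 15.5 kb. Each of these genes had a member at the start. Over all coding genes, 15096 of 25674 assigned merged regions (58.8%) were members, and the genes named here were picked for their number of members. That number grows with the open space around a gene, since regions are assigned to the nearest start, so the number itself was not compared with a background.

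Ranks of members differed less between libraries at starts than elsewhere, where members also ranked worse. As a percent of the 23956 kept summits, the range of a member's 3 ranks had a median of 10.7 points, 7.49 points at starts and 17.3 points away from them. The median difference was 6.50 points between day 0 and immobilized, 6.42 between day 0 and non-immobilized and 5.57 between the day 7 libraries. Members had to be strong in all 3 libraries, which limits how far ranks can differ. Members at starts had median ranks of 23.3%, 23.0% and 23.1% of the kept summits, against 52.3%, 53.5% and 55.1% elsewhere. Ranks near the top have less room to differ, and the ranges were not compared at matched rank. Among the members that shifted toward the day 7 libraries, one near Cavin1, a coat protein of caveolae, had ranks 22515, 9807 and 8073. The largest shift toward day 0 was near Fam207a, with ranks 6786, 22970 and 21431. Between the day 7 libraries the member at the start of Tnip1, which restrains NF-kB signalling, ranked 18820, 23654 and 10203. Near Gcm1 the ranks were 6923, 7939 and 22184. These genes were chosen as extremes, each value comes from 1 library, and of the 5 most shifted members in each of 4 directions (toward or away from day 0, and toward either day 7 library) only that of Tnip1 lies at a coding gene start.

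Promoters with a member differed in sequence from those without any peak. For each of the 16457 genes with a listed promoter the most upstream listed start was used here. By that start alone, 8295 had a member within 1 kb and 5882 had no summit there in any full list. The median GC content of the 300 base window was 62.3% with a member and 46.7% without a summit, and the median number of CpG was 23 and 3. A GC box (GGGCGG, both strands) was in 71.3% of promoters with a member (70.3% to 72.3%), 56.4% of those with a region strong in 1 or 2 libraries (53.1% to 59.5%) and 12.4% of those without a summit. The ETS site CCGGAAG was in 20.9% and 2.67% and the CRE site TGACGTCA, bound by CREB and ATF factors, in 3.89% and 0.714%. In the other direction, the TATA box TATAAA was in 5.59% and 25.7%, the AP-1 site TGANTCA in 3.77% and 11.2% and the RUNX site TGTGGT in 10.7% and 21.0%. Shares of short sites move with base composition, and the CRE, AP-1 and RUNX sites were not compared at matched GC content. Among windows of 60% to 70% GC, the GC box was in 80.6% (79.2% to 81.9%) of 3609 promoters with a member, 78.5% (73.3% to 82.99%) of 297 strong in 1 or 2 libraries, where the intervals overlap, and 58.6% of 345 without a summit, the ETS site in 23.8% (22.4% to 25.3%) and 8.99% (6.19% to 12.5%), and the TATA box in 3.66% (3.07% to 4.32%) and 5.80% (3.58% to 8.81%), where the intervals overlap. A match is a description of letters, not a shown binding site.

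The CCAAT box followed the rank of the member. It was in 40.2% of promoters with a member (39.1% to 41.2%), 29.7% of those strong in 1 or 2 libraries (26.8% to 32.7%) and 40.6% of those without a summit (39.3% to 41.9%). The first and last of these shares overlap, but they came apart within 60% to 70% GC, at 40.4% (38.8% to 42.0%) with a member and 31.3% (26.4% to 36.5%) without a summit. They also came apart where the member's summit lay inside the window, with 44.3% (43.1% to 45.5%) against 40.6%. Among the promoters with a member, divided into 5 equal groups by worst rank, it was in 62.9% of the best group (60.5% to 65.2%), then in 43.0%, 33.9%, 29.7% and 31.4% of the others. The interval of the best group was thus apart from that of every other, and the last 3 were close to each other. Each library gave the same picture by its own rank: the best group had 61.2%, 63.4% and 62.7%, and the last group 31.4%, 31.6% and 31.6%. Within 60% to 70% GC the share went from 63.9% (60.7% to 67.0%) to 27.1% (23.5% to 30.9%). At least 2 boxes were in 38.0% of the best group, as in Rcl1, Sel1l and Gcsh above, and in 7.66% of the last. In the best group the box nearest to the member's summit lay a median of 20 bp from it, and within 50 bp in 78.4% (75.7% to 81.0%). In the last group the median was 54 bp, and 48.3% (43.2% to 53.4%) lay within 50 bp. These distances are over promoters whose window holds both a box and the summit, and windows with more boxes have a nearer one. The GC box went from 82.0% to 61.4%, and the TATA box from 3.32% (2.51% to 4.29%) to 8.02% (6.76% to 9.43%). The scores ordered these groups, so the shares are a description and were not tested.

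**Figure D5:**
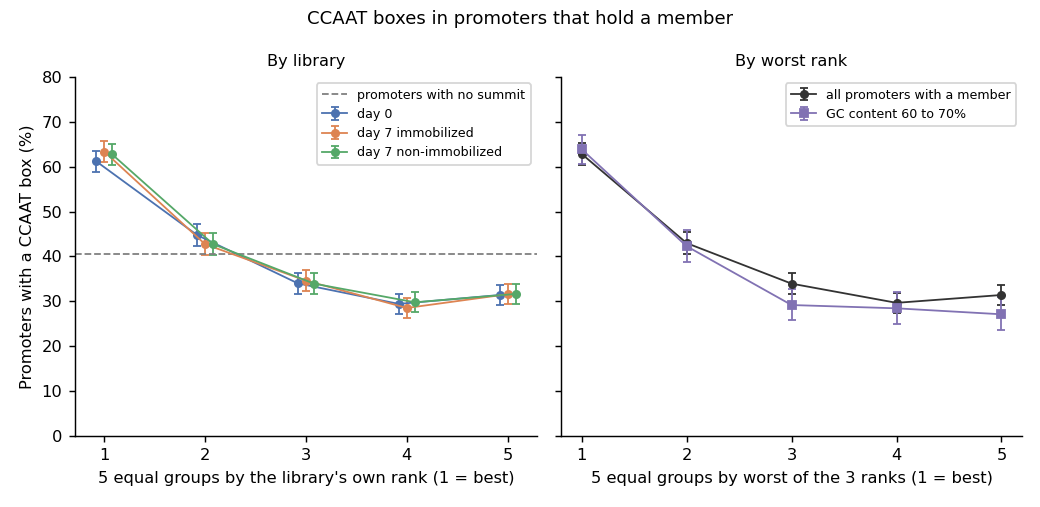
Share of promoters with a member that hold a CCAAT box, with exact 95% intervals. The left panel divides the promoters into 5 equal groups by each library's own rank, with the 40.6% of promoters without a summit dashed, and the 3 libraries overlap. The right panel divides them by worst rank, for all promoters (62.9% to 31.4%) and for those of 60% to 70% GC (63.9% to 27.1%).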

How the data were processed

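Per the labels' protocols, libraries followed Omni-ATAC. Tools that the submitters' processing notes name include MACS2 2.1.2, Bowtie2 2.3.4.1, SAMtools 1.2, bedtools 2.28.0, edgeR 3.26.5, Picard and Trim Galore, on mm10, with no parameters; filters, read shifting and the peak cutoff were not given in the sources used here. Summits were deposited by the authors, for each library on its own, as 1 bp positions with a score, taken from its layout to be a −log10 p or q value (which one was not stated). Per the file headers of the deposited statistics, reads are counts, duplication is a fraction and alignment a percent (90.9%, 92.5% and 89.9%).

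Summits were ranked within a list by score, with ties in file order. Regions were merged as the report describes; depth sets which summits were called, and absence from a list does not show closed chromatin. Starts and promoter sequences came from RefSeq tables of GRCm38.p6, the assembly of mm10, and positions count from 1. Genes were assigned to members by the nearest start within 50 kb. Of 548 list entries, 541 were on the autosomes. The members and lists were chosen with earlier results of these data known. Genes were named by rules of rank, number of members and a fixed set; Grem1, Nog, Tgfbr1, Ski, Nf2, Fosl1, Psma5, Rps19, Mcm4, Ccna2, Pcna, Cebpd, Spi1 and others outside the rule were chosen after their values were seen. Region building returned 3000 of 3000 simulated regions. The simulated sites lay too far apart to merge and their summits close together, so crowded or widely spread summits were not checked. No genome was used, so members away from promoters have no sequence here. Software was Python 3.11.15 with scipy 1.17.1, pandas 2.3.3, matplotlib 3.10.9 and numpy 2.4.6.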

Additional observations from a re-analysis of the deposited data

How the results depend on the processing

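The number of summits kept set most values. With 0.5 times as many summits kept there were 9713 members, 66.6% of the merged regions, and the share at a gene start was 78.6% for members, 41.7% for regions strong in 2 libraries and 26.1% for those strong in 1; the median spread was 29 bp, 41.0% of coding genes had a member at the start and 4.89% of members lay over 50 kb from any start. With as many as the shortest list holds there were 29926 members (44.5%), with shares of 37.9%, 10.5% and 8.05%, a spread of 45 bp, 56.6% of genes and 19.7% over 50 kb. With summits widened by 100 bp, members were 47.6% of regions, the shares for regions strong in 2 libraries and in 1 were 23.9% and 16.4%, the spread was 31 bp and 47.5% of genes had a member; with 500 bp, members were 55.9% of regions and the shares 12.4% and 7.86%. Counting starts within 500 bp gave 54.1%, 12.3%, 7.35% and 48.1% of genes; within 2 kb, 59.9%, 20.4%, 14.8% and 52.5%. Using either gene end for all genes gave 52.5% for members and 48.5% of genes. With listed starts only, added after seeing the data, these were 47.0%, 12.8%, 8.55% and 51.9%. Under each of these settings the share at a start was highest for members and lowest for regions strong in 1 library.

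Leaving out regions over 1000 bp, leaving out crowded regions (none met that measure) and including tied summits, the last added after seeing the data, moved no value beyond its interval. The number of the 27 lists whose interval lay above the share of all coding genes was 10, and between 7 and 11 under the alternatives; with 0.5 times as many summits kept, the AP-1, NF-kB and YAP/TAZ lists no longer lay above it, and the mesenchymal progenitor list (13.3%, 3.76% to 30.7%) lay below. Of 15 motifs, 9 were more frequent with a member than without a summit, intervals apart, and 10 with the summit inside the window, the added one being the CCAAT box. No paired analysis was possible because each group is 1 library and no test was made. Depth limits absence: a summit missing from a list may be below what that library could show.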

Other observations

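Other gene families, read after the data were seen, were set beside the 50.7% of all coding genes with a member at the start. Of 1104 olfactory receptor genes none had one, which allows a share of up to 0.334% (upper bound of the exact interval), and of 354 vomeronasal receptor genes 1 did. None of 53 keratin genes and 10 of 39 Hox genes had one, against 284 of 388 zinc finger genes with a Zfp symbol (73.2%), while the intervals for 171 of 362 solute carriers (47.2%, 42.0% to 52.5%) and 40 of 66 histone cluster genes (60.6%, 47.8% to 72.4%) include the share of all genes. Near-identical copies within such families can lower the number of reads that map to 1 place, and its part was not tested.

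Of the 7367 members not at a coding gene start, 468 (6.35%, 5.81% to 6.93%) lay at a long non-coding RNA gene end, against 3.64% (3.10% to 4.24%) of regions strong in 2 libraries and 3.02% (2.67% to 3.40%) of those strong in 1. A member lay within 1 kb of 95 of 919 microRNA hairpins, 35 of them with the member away from any coding start. The best-ranked of these 35 was at Mir210, a microRNA known from hypoxia, with ranks 982, 1716 and 781 in the day 0, immobilized and non-immobilized libraries. Mir199a-2, whose microRNAs are abundant in mesenchymal cells, ranked 7003, 7674 and 9383.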
